A study of Mus musculus with 4 samples.

Results

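Autophagy and the lysosome were described here through 31 genes: the ubiquitin-like Atg8 proteins and their receptor, the enzymes that attach them to membrane, the factors that start a phagophore, lysosomal membrane proteins, acid hydrolases, subunits of the vacuolar proton pump (V-ATPase), and the transcription factors TFEB and TFE3. The genes were chosen by name, with earlier results of these data known. Each was read from its brightest probe set (by the mean of all 4 arrays) among those annotated to that gene alone. Of the 31 genes, 27 were measured in this way, out of 17097 named genes in all. Map1lc3b, Neu1 and Atp6v0c had no such probe set in the annotation used. Sqstm1, which encodes the cargo receptor p62, was listed only on a probe set shared with another gene. These 4 genes were not analysed here.

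The cells were B16F10, a pigmented mouse melanoma line. Both samples of the control group (control 1 and control 2) received MilliQ water, which is 0 µM plumbagin, and both samples of the treated group (plumbagin 1 and plumbagin 2) received 2 µM plumbagin, a plant naphthoquinone, for 24 h. Whether samples of a group were separate cultures is not stated, so the spread between them may be technical. RNA of each sample was hybridized to 1 Affymetrix array, and 2 arrays per group limit the precision of every value below. All values are on the log2 scale, so a difference of -0.30 is about a 1.2-fold lower level.

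Autophagy encloses cytoplasm in a double membrane and delivers it to the lysosome. ULK1 and beclin 1 start the process, WIPI proteins read the lipid made at the forming membrane, and the ATG12-ATG5 conjugate together with ATG7 and ATG3 attaches LC3 and GABARAP proteins to it. Lysosomal hydrolases then digest the cargo at the low pH kept by the V-ATPase. TFEB and TFE3, relatives of the melanocyte factor MITF, activate many of these genes through E-boxes near their start sites, and the melanosome of pigment cells is itself related to the lysosome.

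The level of each of the 27 genes, averaged over arrays, exceeded a background of 5.05, as did that of 50.5% of all genes. The background is the value that 95% of 41 odorant receptor genes stayed under. The 7 melanocyte markers (Tyr, Tyrp1, Dct, Pmel, Mlana, Mitf and Sox10) were all above it, with means over the list between 11.41 and 11.59 on the 4 arrays. Of the measured markers of other cells, 1 of 8 for macrophages (Cd14), 0 of 6 for fibroblasts, 0 of 5 for keratinocytes, 1 of 5 for endothelium (Kdr) and 1 of 5 for T cells (Cd3e) were above it. Of the 4 arrays, plumbagin 1 stood apart. Its hybridization spike-in controls had a mean of 9.79 against 8.73 to 9.04 on the others, and its upper quartile was 6.26 against 6.34 to 6.36. The part of these features in the results was not tested. Values without this array are given below for the medians of the 27 genes and of their roles. They are also given for Wipi2, Gla, Tfe3, Atg7, Mcoln1 and Atp6v1a. They are not given for the promoter sets, the level classes or the lists of the wider pathway.

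The E-box letters read by TFEB and TFE3 were present near the start of many of these genes. RefSeq promoter windows of GRCm38.p6, from 250 bases before to 50 bases after an annotated start, were listed for 26 of the 31 genes. The letters CACGTG, a palindrome and so the same on both strands, occurred in 11 of these 26 genes (42.3%), against 8.09% of the 27025 genes with a window. The longer palindrome TCACGTGA, which contains the first, occurred in 7 of the 26 (26.9%) against 1.12% of all genes. These 7 were Atg3, Mcoln1, Ctsa, Ctsd, Gla, Atp6v0d1 and Atp6v1a. It was in 3 of 6 hydrolase genes and 2 of 4 V-ATPase genes with a window, but in 0 of 5 Atg8 and receptor genes, 0 of 3 initiation genes and 0 of 2 genes of the TFEB and TFE3 pair. In lists of other genes of the pathway it was in 0 of 31 hydrolases, 4 of 22 lysosomal membrane and delivery genes, 1 of 15 V-ATPase subunits and 0 of 27 autophagy genes. A match is a description of the letters and shows neither binding nor which factor would read them. Genes and letters were both chosen from a pathway already known to use E-boxes, so the higher shares are no test. The shares of all genes were not limited to genes above background.

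The stretches below lie before the annotated start and are shown because they hold these letters in genes whose levels are described next. They are written 5′ to 3′ on the strand of the gene, with CACGTG or TCACGTGA in capitals. The stretch of Gla (chrX:134601174-134601252, minus strand) holds the longer form 2 times, that of Lamp1 (chr8:13159080-13159160, plus strand) holds the shorter form 4 times, and those of Mcoln1 (chr8:3500428-3500499, plus strand) and Atg3 (chr16:45158715-45158783, plus strand) hold both. The others are from Ctsd (chr7:142387900-142387945, minus strand), Atp6v1a (chr16:44139365-44139410, minus strand) and Atg7 (chr6:114670944-114670989, plus strand).
Gla: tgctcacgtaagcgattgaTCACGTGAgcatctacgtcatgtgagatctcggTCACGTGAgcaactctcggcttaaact
Lamp1: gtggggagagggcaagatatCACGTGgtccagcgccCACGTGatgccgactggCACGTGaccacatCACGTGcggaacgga
Mcoln1: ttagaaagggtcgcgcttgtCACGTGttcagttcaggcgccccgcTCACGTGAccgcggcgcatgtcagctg
Atg3: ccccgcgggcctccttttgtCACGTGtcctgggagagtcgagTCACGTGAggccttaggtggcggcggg
Ctsd: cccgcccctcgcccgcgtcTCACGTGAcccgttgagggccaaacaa
Atp6v1a: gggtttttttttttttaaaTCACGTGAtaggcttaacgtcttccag
Atg7: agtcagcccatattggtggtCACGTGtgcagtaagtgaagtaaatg

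The treated and control arrays address whether these transcripts differed after 24 h of plumbagin. No gene of the 27 passed the test, and the differences were small. The mean was lower with plumbagin in 23 of 27 genes, against 55.2% of all 17097 genes and 65.1% of the 8637 genes above background. The median difference was -0.078, between -0.33 for Wipi2 and 0.14 for Lamp2, against -0.012 over all genes and -0.051 over those above background. By limma's moderated test with Benjamini-Hochberg adjustment, 0 of 27 genes had an adjusted p under 0.05, as did 0.0% of all genes, and 1 gene, Gla, had an unadjusted p under 0.05, where it was lower, against 0.731% of all genes (0.988% in either direction). The smallest adjusted p over all genes was 1, and an exact permutation test of 2 against 2 arrays cannot give a two-sided p below 0.333. Both plumbagin arrays lay below both controls in 4 of 27 genes (14.8%), against 15.2% of all genes, and above them in 1 gene, against 10.2%. In bulk RNA, fewer cells of a type and less RNA per cell cannot be told apart.

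**Figure D1:**
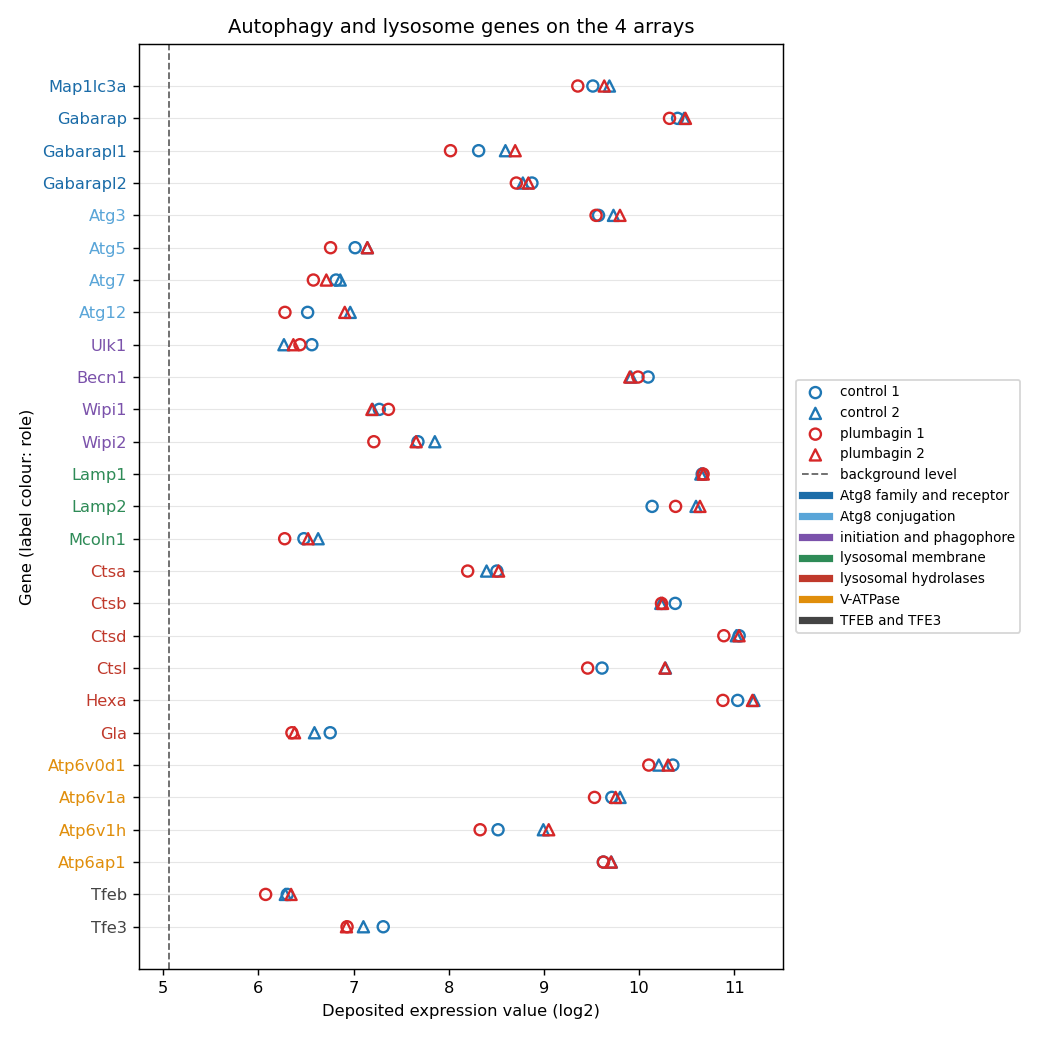
Deposited log2 expression value (x axis) of each of the 27 genes (y axis, label colour by role) on each array: circles are number 1, triangles number 2, blue is control and red plumbagin, and the dashed line is the background level of 5.05. For Gla, Tfe3, Wipi2 and Atg7 both red symbols lie left of both blue ones, while for Ctsl and Atp6v1h the circles and triangles separate whatever the colour.

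Among the Atg8 family, no gene separated the treatments. Map1lc3a, which encodes LC3A, had values of 9.51 and 9.69 on controls 1 and 2 and of 9.36 and 9.63 on plumbagin 1 and 2. The groups overlapped, and the difference was -0.11 ± 0.14 (SE, n = 2 per group). Gabarap, a GABARAP protein gene, was measured at 10.41 and 10.47 in the controls and at 10.32 and 10.49 with plumbagin, a difference of -0.035 ± 0.098. Gabarapl1, its close relative, was at 8.31 and 8.60 in the controls and at 8.02 and 8.70 with plumbagin. Its plumbagin arrays held both the lowest and the highest of the 4 values, and the difference was -0.10 ± 0.26. Its other probe set gave -0.21 ± 0.35. Gabarapl2 was at 8.87 and 8.78 in the controls and at 8.71 and 8.84 with plumbagin, again with overlap (-0.053 ± 0.093).

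Of the genes that attach Atg8 proteins to membrane, Atg7 was the one whose groups did not overlap. Atg7, the E1-like enzyme of both conjugation systems, was at 6.82 and 6.86 in the controls, against 6.58 on plumbagin 1 and 6.71 on plumbagin 2. Both plumbagin arrays were below both controls, and the difference was -0.19 ± 0.091 (SE), with a 95% interval from -0.44 to 0.052. Without plumbagin 1 the difference of Atg7 was -0.12. Its 2 other probe sets above background gave -0.066 ± 0.11 and -0.085 ± 0.089. Atg5, the membrane-side partner of ATG12, was at 7.02 and 7.14 in the controls and at 6.76 and 7.14 with plumbagin. Only plumbagin 1 was low, and the difference was -0.13 ± 0.16. Atg12 was at 6.52 and 6.96 in the controls and at 6.28 and 6.91 with plumbagin, so the gap between the 2 controls was larger than the treatment difference of -0.15 ± 0.27. Atg3, the E2-like enzyme that joins LC3 to lipid, was at 9.57 and 9.73 in the controls and at 9.55 and 9.80 with plumbagin (0.021 ± 0.13).

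Among the initiation and phagophore genes, Wipi2 had the lowest difference of the 27. Wipi2, a lipid-binding protein that brings the conjugation machinery to the phagophore, was at 7.68 and 7.85 in controls 1 and 2 and at 7.21 and 7.66 with plumbagin 1 and 2. Both plumbagin arrays were below both controls, though plumbagin 2 was close to control 1. The difference was -0.33 ± 0.18 (SE), with a 95% interval from -0.81 to 0.15, and its other probe set above background gave -0.26 ± 0.20. Without plumbagin 1 the difference of Wipi2 was -0.11. Wipi1, a relative, was at 7.27 and 7.20 in the controls and at 7.37 and 7.19 with plumbagin. Its difference of 0.044 ± 0.099 had the opposite sign to that of its other probe set above background (-0.20 ± 0.18). Becn1, which encodes beclin 1 of the lipid kinase complex, was at 10.10 and 9.92 in the controls and at 9.99 and 9.90 with plumbagin (-0.060 ± 0.10), and of its 2 other probe sets above background 1 was lower and 1 higher. Ulk1, the kinase that starts autophagy, was at 6.56 and 6.27 in the controls and at 6.44 and 6.37 with plumbagin, where both plumbagin arrays lay between the controls (-0.013 ± 0.13).

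The lysosomal membrane genes held both the steadiest gene of the set and 1 whose probe sets disagreed. Lamp1, an abundant membrane glycoprotein gene, was at 10.66 and 10.65 in the controls and at 10.67 and 10.68 with plumbagin. Both plumbagin arrays were above both controls, but by a mean of 0.017 ± 0.077 (SE), and the sign turned when arrays were centred on their medians (-0.0014). The 95% interval for Lamp1 reached from -0.19 to 0.22. Lamp2, needed for fusion with autophagosomes, was at 10.14 and 10.60 in the controls and at 10.38 and 10.64 with plumbagin. Control 1 was the low array, and the difference was 0.14 ± 0.20. Its 2 other probe sets above background gave 0.24 ± 0.11 and -0.057 ± 0.23. Mcoln1, the lysosomal calcium channel TRPML1, was at 6.48 and 6.63 in the controls and at 6.28 and 6.52 with plumbagin, a difference of -0.15 ± 0.12 with overlap. Without plumbagin 1 the difference of Mcoln1 was -0.031. Its other probe set above background gave -0.13 ± 0.094.

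The 6 measured acid hydrolases were all lower in mean, against 65.1% of genes above background. In number 2 alone 3 of the 6 were lower. Gla was the gene with the clearest separation. Gla, the alpha-galactosidase A that is deficient in Fabry disease, was at 6.75 and 6.59 in the controls, against 6.35 on plumbagin 1 and 6.38 on plumbagin 2. Both plumbagin arrays were below both controls. The difference was -0.31 ± 0.095 (SE), a 1.24-fold lower level, with a 95% interval from -0.56 to -0.049 that is not adjusted for the number of genes (limma adjusted p = 1). It was -0.29 without plumbagin 1, and between -0.39 and -0.22 with any 1 array left out. The unadjusted p of Gla was not under 0.05 with a filter on dim genes, with an eBayes trend, or without control 1, plumbagin 1 or plumbagin 2. Its other probe set was below background and gave no check.

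The other 5 hydrolases overlapped between the groups. Ctsa, a protective protein for other lysosomal enzymes, was at 8.51 and 8.40 in the controls and at 8.20 and 8.52 with plumbagin (-0.090 ± 0.14). Ctsb, a cysteine cathepsin, was at 10.38 and 10.23 in the controls and at 10.24 and 10.25 with plumbagin (-0.063 ± 0.092). Ctsd, the aspartic cathepsin, was at 11.05 and 11.02 in the controls and at 10.89 and 11.05 with plumbagin (-0.066 ± 0.094). In Ctsa and Ctsd plumbagin 1 was the low array. Hexa, the alpha subunit of beta-hexosaminidase, was at 11.04 and 11.21 in the controls and at 10.88 and 11.19 with plumbagin (-0.086 ± 0.14). Ctsl, another cysteine cathepsin, was at 9.61 and 10.28 in the controls and at 9.46 and 10.27 with plumbagin. Its arrays fell into a pair of number 1 and a pair of number 2, and its difference of -0.078 ± 0.37 had the largest error of the 27 genes, with a 95% interval from -1.06 to 0.91.

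No V-ATPase gene separated the groups. Atp6v0d1, of the membrane sector, was at 10.36 and 10.21 in the controls and at 10.10 and 10.31 with plumbagin (-0.078 ± 0.11, SE). Atp6v1a, the catalytic subunit, was at 9.71 and 9.80 in the controls and at 9.53 and 9.75 with plumbagin (-0.11 ± 0.11). Without plumbagin 1 its difference was -0.00295, and its other probe set above background had the opposite sign (0.091 ± 0.11). Atp6v1h, a subunit of the cytosolic sector, was at 8.52 and 8.99 in the controls and at 8.33 and 9.05 with plumbagin (-0.066 ± 0.30), and as in Ctsl the arrays paired by number. Atp6ap1, an accessory subunit, was at 9.63 and 9.71 in the controls and at 9.63 and 9.71 with plumbagin. Its difference was -0.0014 ± 0.086, with a 95% interval from -0.23 to 0.23.

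Of the transcription factors, Tfe3 was lower on both plumbagin arrays and Tfeb on 1. Tfe3 was at 7.31 and 7.10 in the controls, against 6.93 on plumbagin 1 and 6.92 on plumbagin 2. The groups did not overlap, and the difference was -0.28 ± 0.10 (SE), a 1.21-fold lower level, with a 95% interval from -0.56 to 0.0011 (limma adjusted p = 1). It was -0.28 without plumbagin 1 and between -0.38 and -0.18 with any 1 array left out. Tfeb was at 6.30 and 6.28 in the controls and at 6.08 and 6.34 with plumbagin, so that plumbagin 1 was the lowest and plumbagin 2 the highest of the 4 (-0.084 ± 0.12). Each of these genes had 1 probe set.

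**Figure D2:**
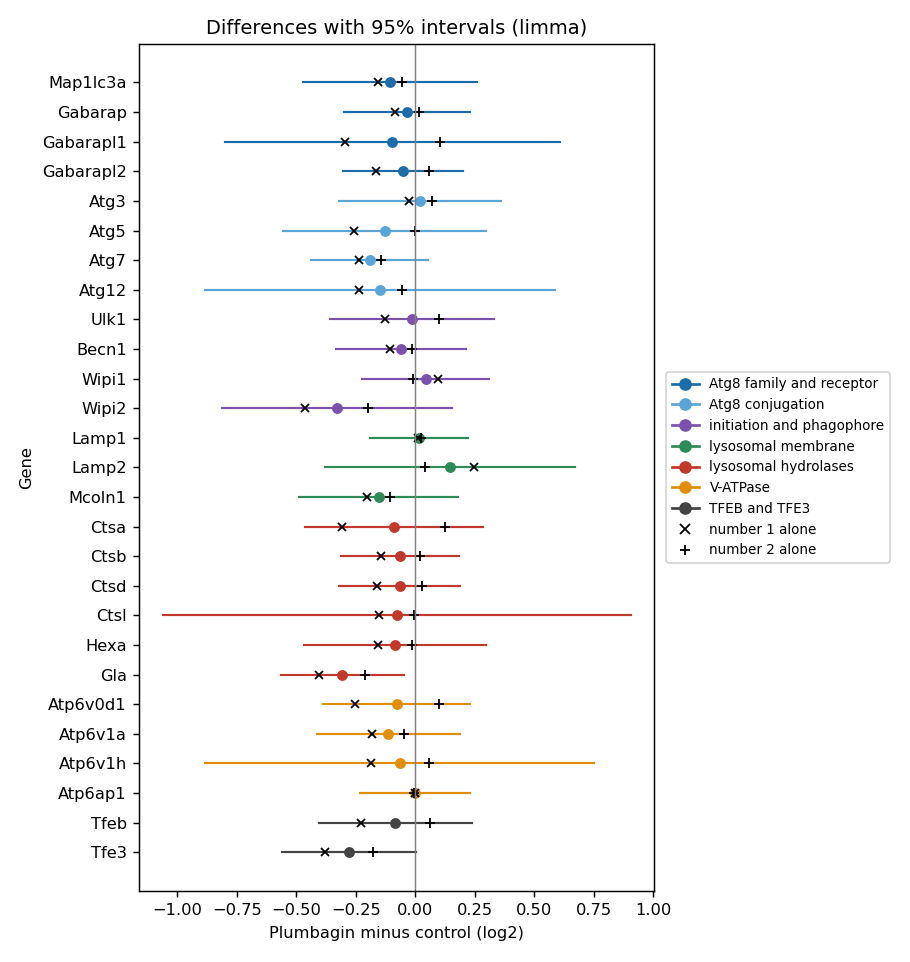
Difference between plumbagin and control (x axis, log2) for each gene (y axis): dots and bars are limma's estimate and 95% interval from 2 arrays per group, and the crosses and plus signs are plumbagin minus control in number 1 and in number 2 alone. The interval of Gla, from -0.56 to -0.049, is the one of the 27 that leaves out 0 in this fit of all 4 arrays without a block, and intervals are widest for Ctsl, Atp6v1h, Atg12 and Gabarapl1.

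The sample titles number the samples of each group 1 and 2, so the treatment difference was also taken within each number, where 1 array per group allows no test. In number 1, 23 of 27 genes were lower with plumbagin, against 55.5% of all genes and 69.1% of those above background, with a median of -0.16 against -0.11 for genes above background. In number 2, 14 of 27 were lower, against 51.5% of all genes, with a median of -8e-05. A difference of at least 0.25 in size was reached downward by 7 genes in number 1, against 15.2% of all genes (26.9% of those above background), and by 0 genes in number 2, against 1.59%. It was reached upward by 0 of the 27 genes in number 1, against 7.8% of all genes, and by 0 in number 2, against 1.71%. The difference in number 2 lay above that in number 1 for 24 of 27 genes, against 56.0% of all genes and 69.2% of those above background. The number 1 pair includes plumbagin 1, the array with the high spike-in controls, whose part in these values was not tested. By level, the 10 genes between 5.05 and 8 had a median of -0.24 in number 1 (-0.12 for all genes of that level) and of -0.082 in number 2 (-0.0025). The 10 genes between 8 and 10 had medians of -0.16 (-0.11) and 0.026 (-0.0026), and the 7 genes above 10 had medians of -0.14 (-0.056) and 0.025 (0.0067).

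Lower values in both numbers were found in 12 of 27 genes (44.4%), against 29.0% of all genes and 36.8% of genes above background. The 5 lowest mean differences among them were Wipi2 (-0.46 in number 1 and -0.20 in number 2), Gla (-0.40 and -0.21), Tfe3 (-0.38 and -0.18), Atg7 (-0.24 and -0.15) and Mcoln1 (-0.20 and -0.11). The 12 also include genes near 0 in number 2, namely Atg5 (-8e-05), Ctsl (-0.0049), Becn1 (-0.013) and Hexa (-0.016). Both numbers gave higher values for Lamp1 and Lamp2, 2 of 27 against 21.7% of all genes. In the genes outside these 2 groups the numbers had opposite signs, with both values near 0 in Atp6ap1 (0.00069 and -0.0035). Ctsa, for example, differed by -0.31 in number 1 and by 0.13 in number 2, and Gabarapl1 by -0.30 and 0.10.

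**Figure D3:**
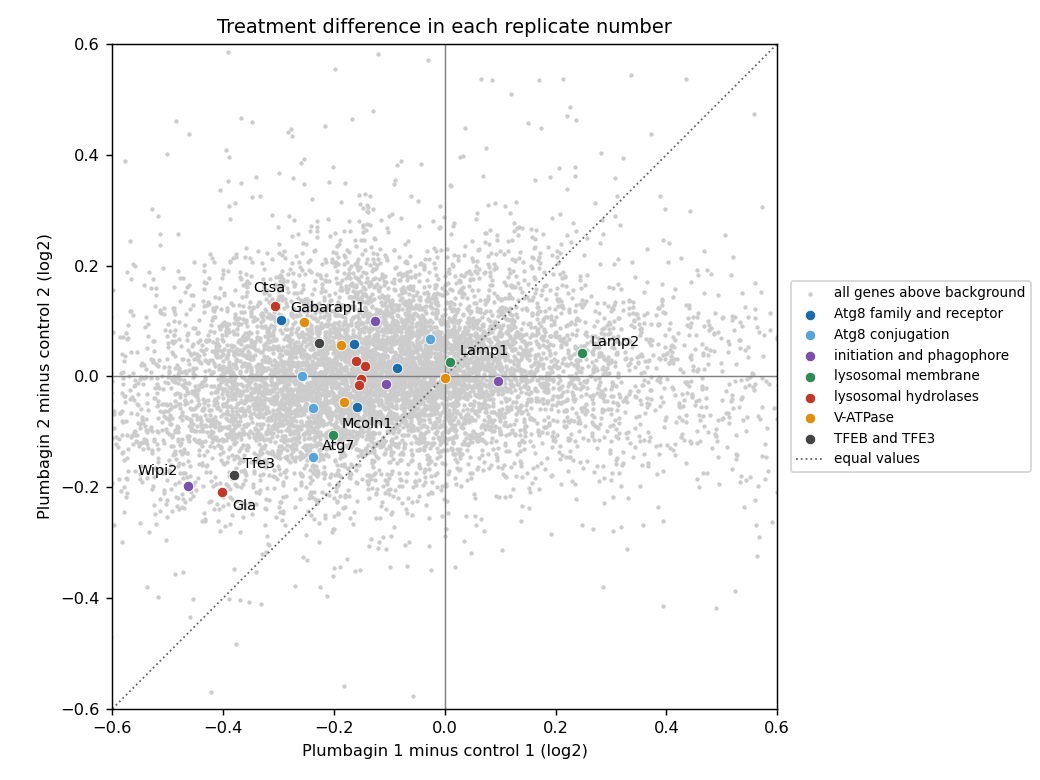
Plumbagin 1 minus control 1 (x axis) against plumbagin 2 minus control 2 (y axis), both log2, for the 27 genes coloured by role and for all 8637 genes above background in grey, where genes beyond the axes are not drawn. Of the 27 genes, 23 lie left of 0 on the x axis while 14 lie below 0 on the y axis, and Wipi2, Gla and Tfe3 lie lowest to the left.

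The roles were also set side by side. The median difference was -0.078 over the 12 autophagy genes of the first 3 roles, -0.082 over the 6 hydrolases and -0.072 over the 4 V-ATPase genes. In number 1 the medians were -0.16, -0.16 and -0.18, and in number 2 they were -0.0041, 0.0068 and 0.026. Without plumbagin 1 the medians of the autophagy genes, hydrolases and V-ATPase genes were 0.021, 0.042 and 0.031. Within the autophagy genes they were then 0.041 for the Atg8 family, 0.11 for the conjugation genes and -0.075 for the initiation genes. The 3 lysosomal membrane genes had a median of 0.017, which was 0.018 without plumbagin 1. Tfeb and Tfe3 had one of -0.18, which was -0.12 without plumbagin 1. Without plumbagin 1, 10 of the 27 genes were lower, against 58.0% of all genes and 56.8% of those above background. The median over all 27 was then 0.024, against -0.021 over all genes and -0.025 over those above background. No test was made between roles, since the genes were chosen with results of these arrays known.

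The 7 genes with TCACGTGA near their start had a median difference of -0.090, and 6 of them were lower. Over the whole set 23 of 27 were lower, and 65.1% of genes above background. The 11 genes with a window but without CACGTG had a median of -0.053, with 9 lower, and these include Tfe3 and Wipi2. In number 1 the medians were -0.20 and -0.16, and in number 2 they were 0.028 and 0.015. With the letters TCACGTGA 7 of 7 genes were lower in number 1 and 3 in number 2, against 69.1% and 50.7% of genes above background. Without CACGTG these counts were 8 and 5 of 11. The ranges overlapped, from -0.31 for Gla to 0.021 for Atg3 with the letters, and from -0.33 for Wipi2 to 0.14 for Lamp2 without. All 11 measured genes with CACGTG, the 7 among them, had a median of -0.090, with 9 lower.

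For many of these genes, as for most of all genes, the gap between the numbers was larger than the difference between treatments. The mean of both number 2 arrays differed from that of both number 1 arrays by more than the treatment difference in 19 of 27 genes (70.4%), against 61.5% of all genes. Both number 2 arrays lay above both number 1 arrays in 13 of 27 genes (48.1%), against 18.9% of all genes and 28.2% of genes above background, and below them in 3, against 30.0%. The largest gap was in Ctsl, where control 2 exceeded control 1 by 0.67 and plumbagin 2 exceeded plumbagin 1 by 0.81. Atp6v1h followed with gaps of 0.48 and 0.72, Atg12 with 0.45 and 0.63, and Gabarapl1 with 0.28 and 0.68. Lamp2 had gaps of 0.46 and 0.26. The genes lower on both number 2 arrays were Ulk1, Becn1 and Wipi1, which are 3 of the 4 initiation genes, with gaps of -0.29, -0.18 and -0.070 between the controls. Melanocyte markers also lay higher on the number 2 arrays, in 6 of 7 genes, Mlana being the exception. What the numbers stand for, such as a culture or a day, is not stated, so the source of these gaps was not tested.

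**Figure D4:**
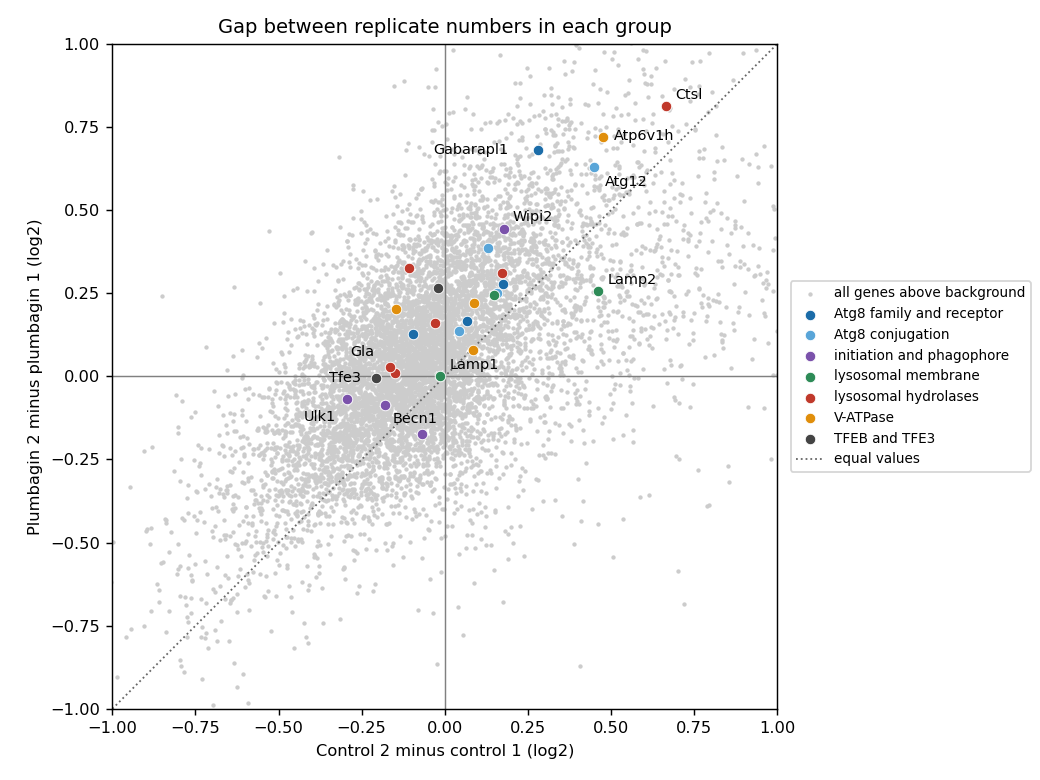
Control 2 minus control 1 (x axis) against plumbagin 2 minus plumbagin 1 (y axis), both log2, for the 27 genes coloured by role and for the 8637 genes above background in grey, where genes beyond the axes are not drawn. Ctsl, Atp6v1h, Atg12 and Gabarapl1 lie far up and to the right, at gaps from 0.28 to 0.81, Lamp1 lies close to 0 in both, and Ulk1 and Becn1 lie on the negative side of both axes.

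In the wider pathway 4 of 5 lists had a median below 0, as did all genes (-0.012) and genes above background (-0.051). In number 2 alone each list had a median above 0, against -0.0038 over all genes. These were 0.032 for autophagy, 0.022 for hydrolases, 0.034 for membrane and delivery, 0.020 for V-ATPase and 0.049 for the mTORC1 list. Of 33 other autophagy genes 29 were measured, 17 lower and 12 higher with plumbagin, with a median of -0.055 and 0 past limma's test. Atg2b, a lipid transfer protein of the growing phagophore, differed by -0.21 ± 0.096 (SE), and Wdr45, a WIPI relative, by -0.14 ± 0.082. In each, both plumbagin arrays were below both controls, as in 6 of the 29 (20.7%). That share was 15.2% over all genes and 18.3% over those above background. Atg2b differed by -0.32 in number 1 and by -0.094 in number 2, and Wdr45 by -0.18 and -0.10. The mitophagy receptor Bnip3 was at 10.65 and 10.87 in the controls and at 10.94 and 10.93 with plumbagin (0.18 ± 0.11), and its relative Bnip3l differed by 0.27 ± 0.16, with 0.56 in number 1 and -0.013 in number 2.

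Of 39 other hydrolases and their cofactors 34 were measured, 23 lower and 11 higher, with a median of -0.053 and 0 past the test. Lipa, the acid lipase, was higher on both plumbagin arrays than on both controls (0.19 ± 0.10, SE), as was Ids, the iduronate sulfatase (0.22 ± 0.14). Both had the opposite sign to the 6 measured hydrolases above. In this list both plumbagin arrays were above both controls in 3 of 34 genes, against 10.2% of all genes. They were below both controls in 4 (11.8%), against 15.2%. Ctsk and Ctsh, 2 further cathepsins, differed by -0.14 ± 0.078 and -0.15 ± 0.092, at means below the background level.

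Of 30 other lysosomal membrane and delivery genes 26 were measured, 16 lower and 10 higher (median -0.031, 0 past the test). The 4 with the smallest p were Tmem192, a lysosomal membrane protein (-0.29 ± 0.16, SE), Hgsnat, an acetyltransferase of heparan sulfate breakdown (-0.14 ± 0.091), Npc1, the cholesterol exporter (-0.24 ± 0.16), and Clcn7, the chloride exchanger (-0.25 ± 0.20). Tmem192 differed by -0.54 in number 1 and by -0.048 in number 2.

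Of 20 other V-ATPase subunits 17 were measured, 10 lower and 7 higher (median -0.035, 0 past the test). Atp6v0a1, a membrane-sector subunit, was at 7.31 and 7.27 in the controls and at 7.02 and 7.12 with plumbagin (-0.22 ± 0.085, SE). Atp6v0b, a proteolipid subunit, was at 9.61 and 9.78 in the controls and at 9.45 and 9.59 with plumbagin (-0.18 ± 0.11). In these 2 genes both plumbagin arrays were below both controls, which makes 2 of the 17 (11.8%). The share was 15.2% over all genes and 18.3% over those above background, with 0 of the 4 V-ATPase genes of the main set. Atp6v1c2 and Atp6v1g2, at 0.13 ± 0.100 and 0.14 ± 0.11, were below background.

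Among 24 relatives of TFEB and regulators of mTORC1, the kinase complex that holds TFEB in the cytoplasm, 20 were measured. They were lower in 8 and higher in 12, with a median of 0.043 and 0 past the test. Flcn, folliculin, which acts on the Rag GTPases, was at 7.81 and 7.81 in the controls and at 7.20 and 7.76 with plumbagin. Its difference of -0.33 ± 0.20 (SE) was made up of -0.61 in number 1 and -0.053 in number 2. Mtor (-0.16 ± 0.11) and Rptor (-0.13 ± 0.092), the kinase and its raptor partner, were below both controls on both plumbagin arrays. Mtor differed by -0.30 in number 1 and by -0.024 in number 2, and Rptor by -0.22 and -0.052. Such separation was seen in 3 of the 20 genes, against 15.2% of all genes and 18.3% of those above background. Both plumbagin arrays lay above both controls in 2 of the 20, against 10.2% of all genes. Sesn2, a stress-induced inhibitor of the complex, overlapped (-0.16 ± 0.13).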

How the data were processed

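Expression was measured on 4 Affymetrix mouse arrays. The authors deposited 1 log2 value for each probe set. RMA, Transcriptome Analysis Console and Affymetrix Expression Console are the tools named, per the submitters' processing notes, and their versions are not given in the sources used here. The RMA method makes array distributions alike, so a shift of most genes would be removed. Of 45141 probe sets, 104 were controls, 28898 had 1 gene symbol, 551 several and 15588 none. Symbols were updated through Entrez numbers in a RefSeq table of GRCm38.p6 (28689 probe sets), giving 17097 genes, each read from its brightest probe set. No filter on dim genes was applied. Groups came from the sample titles. Differences were fitted in R 4.3.3 with limma 3.58.1 (lmFit, then eBayes), two-sided, without covariates, with Benjamini-Hochberg adjustment over all genes and a threshold of 0.05. The code was tested on simulated data, with shifts larger than any difference seen here and with noise independent between arrays. That checks the code and does not show how well small differences on these arrays would be detected. Promoter windows came from RefSeq. The members, lists and the letters searched were chosen with earlier results of these data known. All members are named, and of each other list the 4 with the smallest p; cell markers were taken as whole lists. Alternatives were other probe sets, a filter, 3 normalizations, 2 eBayes settings, each array left out in turn, and a replicate block by number. Same-numbered samples deviated together (correlation of 0.54 over all genes and 0.62 over those above background), but 2 pairs do not settle a pairing. The errors and intervals given for each gene come from the fit without the block, so gaps between the numbers count as error in them.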

Additional observations from a re-analysis of the deposited data

How the results depend on the processing

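In every alternative fit, including the replicate number as a block, limma called 0 genes; an unadjusted p under 0.05 was given to 169 genes in the main comparison, 434 with the block, and 56 to 973 with 1 array left out (the single array left in a group is taken to have the spread of the other group). No gene of the 27 passed in any of them; with the block the unadjusted p of Wipi2 and Tfe3 was under 0.05 beside that of Gla. With 1 array left out, the median over the 27 genes ranged from -0.23 to 0.024, that of the Atg8 conjugation genes from -0.29 to 0.11, of the initiation genes from -0.15 to 0.054, of the hydrolases from -0.25 to 0.042 and of the lysosomal membrane genes from -0.087 to 0.018; the last was -0.0014 with centred arrays and 0.051 with cyclic loess. Atg7, Wipi2, Mcoln1, Gla and Tfe3 kept a negative sign in all alternatives run, where other probe sets were counted only above background. Mcoln1 came to -0.031 without plumbagin 1. Below background, a probe set of Atg7 (0.060), of Wipi2 (0.10) and of Mcoln1 (0.081) was positive, and that of Gla was negative (-0.11). The sign turned in some alternative for 22 genes. Leaving out an array turned 20 of them: Map1lc3a ranged from -0.25 to 0.033, Gabarap from -0.12 to 0.049, Gabarapl1 from -0.44 to 0.24, Gabarapl2 from -0.12 to 0.010, Atg3 from -0.10 to 0.15, Atg5 from -0.32 to 0.064, Atg12 from -0.46 to 0.17, Ulk1 from -0.16 to 0.13, Becn1 from -0.15 to 0.030, Wipi1 from -0.043 to 0.13, Lamp2 from -0.087 to 0.375, Ctsa from -0.25 to 0.072, Ctsb from -0.14 to 0.013, Ctsd from -0.15 to 0.014, Ctsl from -0.48 to 0.33, Hexa from -0.24 to 0.070, Atp6v0d1 from -0.18 to 0.024, Atp6v1h from -0.43 to 0.29, Atp6ap1 from -0.044 to 0.041 and Tfeb from -0.22 to 0.050. With probe sets averaged, Atg3 was -0.0095, Ulk1 0.030 and Wipi1 -0.027. With repeated quantile normalization, Ulk1 and Atp6ap1 were 0.034 and 0.026; with cyclic loess Gabarap was 0.0023, Gabarapl2 0.0057, Ulk1 0.044 and Atp6ap1 0.047; with centred arrays Lamp1 was -0.0014. On other probe sets above background Becn1 was 0.088, Wipi1 -0.20, Lamp2 -0.057 and Atp6v1a 0.091. The cause of these turns was not tested. Without plumbagin 1, 10 of the 27 genes were lower and 17 higher, against 58.0% of all genes lower; 2 arrays per group limit what any of these values can show.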
